A study of Oryctolagus cuniculus with 4 samples.

Results

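Genes that other mammals express from the maternal allele were compared between rabbit parthenotes and fertilised embryos. The list held 9 genes (IGF2R, GRB10, GNAS, KCNQ1, DLX5, PPP1R9A, CALCR, CPA4 and TFPI2), and 8 of them were among the 10345 genes with a named probe. They were found through the gene names, accessions and descriptions of the array, with 19 of its 43603 probes. TFPI2, a serine protease inhibitor of the placenta, had no probe under its name and was not analysed here. New Zealand White rabbits provided all embryos. Parthenote 6 day old embryos grew from oocytes that were activated with electrical pulses, cycloheximide and 6-DMAP and then transferred to the oviducts of recipient does, and the control 6 day old embryos came from inseminated does and were untreated. Both groups were flushed from the uterus as blastocysts and pooled before RNA extraction, so each value is that of a pool. On each of 4 arrays, 150 ng of RNA of a parthenote pool was labelled with Cy3 and 150 ng of RNA of a fertilised pool with Cy5.

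Genomic imprinting silences the copy of a gene that came from one of the parents, through methylation marks set in the germ line. A parthenote has no paternal genome, so both of its copies carry maternal marks. A gene read only from the maternal copy thus has 2 active copies in a parthenote and 1 in a fertilised embryo. If each copy gave the same amount of RNA, the log2 ratio of parthenote over fertilised embryos would be 1, a doubling, and it would be 0 for a gene read from both copies. The probes do not tell alleles apart, and imprinting of these genes in rabbit blastocysts was not measured. In other species several of them are imprinted in some tissues only.

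Probes of 60 bases report each gene, and their sequences show which values are separate measurements. The 5 GRB10 probes start within a few bases of each other, as do the 5 DLX5 probes, so each set is close to a single measurement. The first and the last probe of each set are shown with the 55 bases that all 5 share in capitals.

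GRB10, bases 1507 to 1566 of the transcript: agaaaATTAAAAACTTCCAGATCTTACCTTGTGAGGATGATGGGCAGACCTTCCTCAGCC
GRB10, bases 1512 to 1571 of the transcript: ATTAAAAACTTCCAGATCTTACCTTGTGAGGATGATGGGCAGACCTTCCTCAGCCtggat
DLX5, bases 547 to 606 of the transcript: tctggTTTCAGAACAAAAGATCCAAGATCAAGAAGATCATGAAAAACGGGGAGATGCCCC
DLX5, bases 552 to 611 of the transcript: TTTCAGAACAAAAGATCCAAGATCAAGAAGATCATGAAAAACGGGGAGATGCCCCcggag

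The probes of IGF2R and GNAS below carry the other increases reported, and none of their bases is in capitals. For IGF2R the sequence is that of the probe farthest from the others of the gene. The remaining IGF2R probes overlap each other by 30 bases near the end of the transcript, so this gene has measurements at 2 places.

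IGF2R, bases 6052 to 6111 of the transcript: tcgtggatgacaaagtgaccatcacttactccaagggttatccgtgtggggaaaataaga
GNAS, bases 752 to 811 of the transcript: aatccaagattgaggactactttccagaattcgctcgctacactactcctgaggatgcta

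The array files place some probes on a genome whose build they do not name. All are parts of transcripts and therefore exonic. The IGF2R probes lay on chromosome 12, the first at chr12:149849126-149851385, a span longer than the probe because it bridges an intron, and the others at chr12:149862172-149862231 and chr12:149862202-149862261. DLX5 (chr10:32242011-32242075 over its 5 probes), PPP1R9A (chr10:33847980-33848039) and CALCR (chr10:35401950-35408904 and chr10:35410766-35410825) lay on chromosome 10. CPA4 was at chr7:14337397-14337456. The probes of GRB10, GNAS and KCNQ1 had no position in the files.

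Each array gives a log2 ratio of parthenote over fertilised for each probe, from the background-subtracted and dye-normalised signals of the scanner software. The mean over the arrays was tested against 0 with limma, which moderates the spread of each probe towards that of all probes, and a probe is called higher or lower where the Benjamini-Hochberg adjusted p over all 43595 probes tested was under 0.05. Every array had the parthenote in Cy3 and the fertilised pool in Cy5, so a dye effect of a probe and a difference between the groups cannot be told apart, and the intervals below do not cover it. In pools of whole embryos, a change in the share of a cell type and a change in RNA per cell cannot be told apart either. The slide was the same for all 4 arrays, and the log2 ratios of pairs of arrays correlated between 0.668 and 0.815 across probes, which are not independent replicates.

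IGF2R, GRB10 and GNAS were higher in parthenotes in the deposited ratios, by 1.64-fold, 1.39-fold and 1.41-fold at the brightest probe of each gene. Each of these means turned in sign after normexp background correction with median centring. For IGF2R the mean was then -0.02, with an interval from -0.22 to 0.17 (adjusted p = 0.823 in limma). KCNQ1 was near 0, PPP1R9A was higher on all 4 arrays without passing the test, and DLX5 was lower on all 4 arrays with 4 of its 5 probes called. CALCR and CPA4 were not well above background in either group on any array. Judged by the brightest probe of each gene, 3 of 8 genes were called higher and 0 lower in limma. At an unadjusted p under 0.05 the counts were 4 higher and 1 lower, and the methods' t-test with adjustment gave 3 and 0. Over the brightest probes of all 10345 named genes, 11.6% were called higher and 12.3% lower. Counted as probes, 9 of 19 were called higher against 9.53% of all probes, and 4 were called lower against 11.1%, but the 9 are 5 near-identical probes of GRB10, 3 of IGF2R and 1 of GNAS, and the 4 are near-identical probes of DLX5. The median log2 ratio over the 6 genes above background was 0.49, against 0.00 over all probes tested. With the 2 genes whose ratios the software set to 0 it was 0.24 over 8 genes, and this median turned to -0.12 under normexp with median centring.

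**Figure D1:**
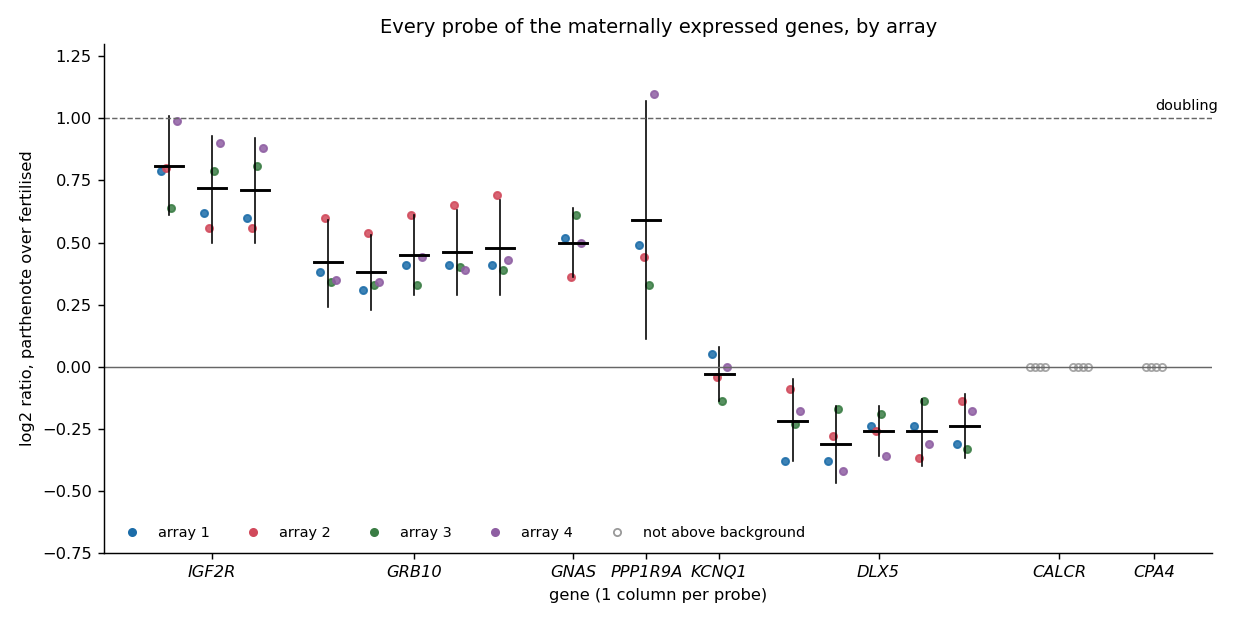
Log2 ratio of parthenote over fertilised embryos (y axis) of every probe of the 8 genes (x axis, 1 column per probe), with a point per array, the mean as a thick bar and the 95% interval of limma as a thin line. The solid line marks 0 and the dashed line a doubling; open grey points are ratios that the software set to 0. All points of IGF2R, GRB10 and GNAS lie between 0 and 1, while all points of DLX5 lie under 0. Under median centring the mean of the brightest probe of each of the former turned in sign, for IGF2R only to -0.02.

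IGF2R encodes the cation-independent mannose 6-phosphate receptor, which carries lysosomal enzymes to the lysosome and takes up IGF2 for degradation. It is the classic maternally expressed gene of the mouse. The log2 processed signals of its brightest probe in parthenotes were 13.29, 13.30, 13.63 and 13.39 on arrays 1 to 4. In fertilised embryos they were 12.68, 12.74, 12.82 and 12.51. All parthenote pools were above all fertilised pools. The log2 ratios of the arrays were 0.60, 0.56, 0.81 and 0.88. Their mean was 0.71 ± 0.15 (SD, n = 4 arrays; adjusted p = 0.0166 in limma), and it moved to -0.02 under normexp with median centring. In linear terms the parthenotes had 1.64 times the fertilised level, with a 95% interval from 1.42 to 1.89, which lies under a doubling.

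The probe in the body of the IGF2R transcript was dimmer, with a mean log2 signal of 6.53 in parthenotes and 5.73 in fertilised embryos. Its log2 ratios were 0.79, 0.80, 0.64 and 0.99, again higher on every array. The mean was 0.81 ± 0.14 (SD, n = 4 arrays; adjusted p = 0.0132 in limma), and its interval, from 0.61 to 1.01, reached a doubling. Under normexp with median centring it was 0.26 (adjusted p = 0.0197 in limma), so this probe did not turn in sign. The ratio was smaller than the deposited one after normexp and loess too, at 0.33 (adjusted p = 0.0416 in limma). With repaired backgrounds it was 0.44 (adjusted p = 0.00119 in limma). In the deposited ratios both places of the transcript were called in the same direction, while only the dimmer one left a doubling within its interval. Without replicate 1, 2, 3 or 4, the brightest probe had an adjusted p of 0.0504, 0.0608, 0.0738 or 0.0747 in limma, so its call needed all of the arrays, while the log2 ratio stayed between 0.66 and 0.76.

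GRB10 encodes an adaptor protein that binds the insulin and IGF1 receptors and limits growth, and mice express it from the maternal allele in most tissues outside the nervous system. The log2 signals of its brightest probe were 11.94, 12.14, 11.91 and 11.77 in parthenotes. They were 11.53, 11.46, 11.52 and 11.34 in fertilised embryos. The groups did not overlap. The arrays gave log2 ratios of 0.41, 0.69, 0.39 and 0.43, with array 2 apart from the others. The mean was 0.48 ± 0.14 (SD, n = 4 arrays; adjusted p = 0.0269 in limma), and -0.21 under normexp with median centring.

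The 5 GRB10 probes had mean log2 ratios between 0.38 and 0.48, with adjusted p between 0.0224 and 0.0281 in limma. The interval of the brightest probe ran from 0.29 to 0.67, or 1.22-fold to 1.59-fold, and lay under a doubling. Without array 2 the log2 ratio was 0.41 (adjusted p = 0.0283 in limma). Without replicate 1, 3 or 4 it stayed between 0.49 and 0.51, and the adjusted p in limma was 0.075, 0.0915 or 0.116.

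GNAS encodes the alpha subunit of the stimulatory G protein, which couples hormone receptors to adenylyl cyclase. Its locus gives several transcripts that share exons, some of them from the paternal and some from the maternal copy, and the stimulatory alpha subunit itself is read from both copies in most tissues. A single probe reports it, so transcripts that hold its sequence were measured together. Its log2 signals were 14.33, 14.03, 14.32 and 14.02 in parthenotes. They were 13.81, 13.67, 13.72 and 13.52 in fertilised embryos. All parthenote pools were above all fertilised pools, and no probe of the 8 genes was saturated on any array.

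The GNAS log2 ratios were 0.52, 0.36, 0.61 and 0.50. Their mean was 0.50 ± 0.10 (SD, n = 4 arrays; adjusted p = 0.016 in limma), and -0.28 under normexp with median centring, where it was called lower (adjusted p = 0.0117 in limma). In the deposited ratios the interval ran from 0.36 to 0.64, or 1.28-fold to 1.56-fold. Without replicate 2 the call held (adjusted p = 0.0416 in limma), and without replicate 1, 3 or 4 the adjusted p was 0.0586, 0.0587 or 0.091.

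**Figure D2:**
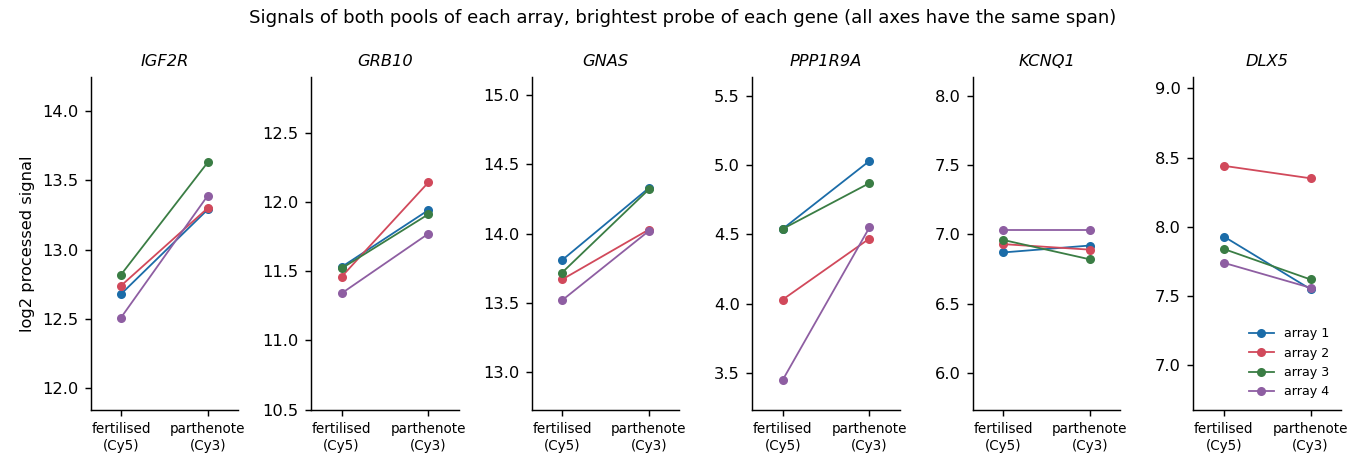
Log2 processed signal (y axis) of the fertilised and the parthenote pool of each array (x axis), joined by a line per array, for the brightest probe of the 6 genes above background. For IGF2R, GRB10 and GNAS every parthenote point is above every fertilised point, and for KCNQ1, PPP1R9A and DLX5 the groups overlap. Under median centring the mean ratio of each of the former turned in sign, for IGF2R only to -0.02.

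Within an array, IGF2R exceeded GNAS by 0.09, 0.20, 0.20 and 0.37 log2 units, in the same direction on all 4 arrays. IGF2R exceeded GRB10 on 3 of 4 arrays, by 0.23 ± 0.26 (SD) on average. GNAS and GRB10 differed by 0.02 ± 0.24 (SD), less than the spread between arrays. These differences between genes were not tested. Among the 24137 probes that were well above background in all 8 channels, 13.9% were called higher, and 20.0% had an interval wholly above 0 and wholly under a doubling, as the brightest probes of these 3 genes had.

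The direction of these 3 genes differed between normalisations, and the values of bright probes are given beside them. The mean signals of the brightest probes of IGF2R, GRB10 and GNAS were above 11 on the log2 scale, as were those of 5810 probes, a limit chosen after the values were seen. Over these probes the median log2 ratio was 0.00 in the deposited ratios and -0.73 after normexp with median centring, which has no step that removes a trend of the ratio with brightness. The values of -0.02, -0.21 and -0.28 that this setting gave the 3 genes thus lay above the median of bright probes. Of these bright probes, 17.1% were called higher in the deposited ratios and 0.534% under median centring. With loess in place of centring, which removes such a trend, the log2 ratios were 0.72 for IGF2R, 0.42 for GRB10 and 0.56 for GNAS. All 3 were called higher. Whether the shift of bright probes under median centring comes from the dyes or from the groups was not tested.

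**Figure D3:**
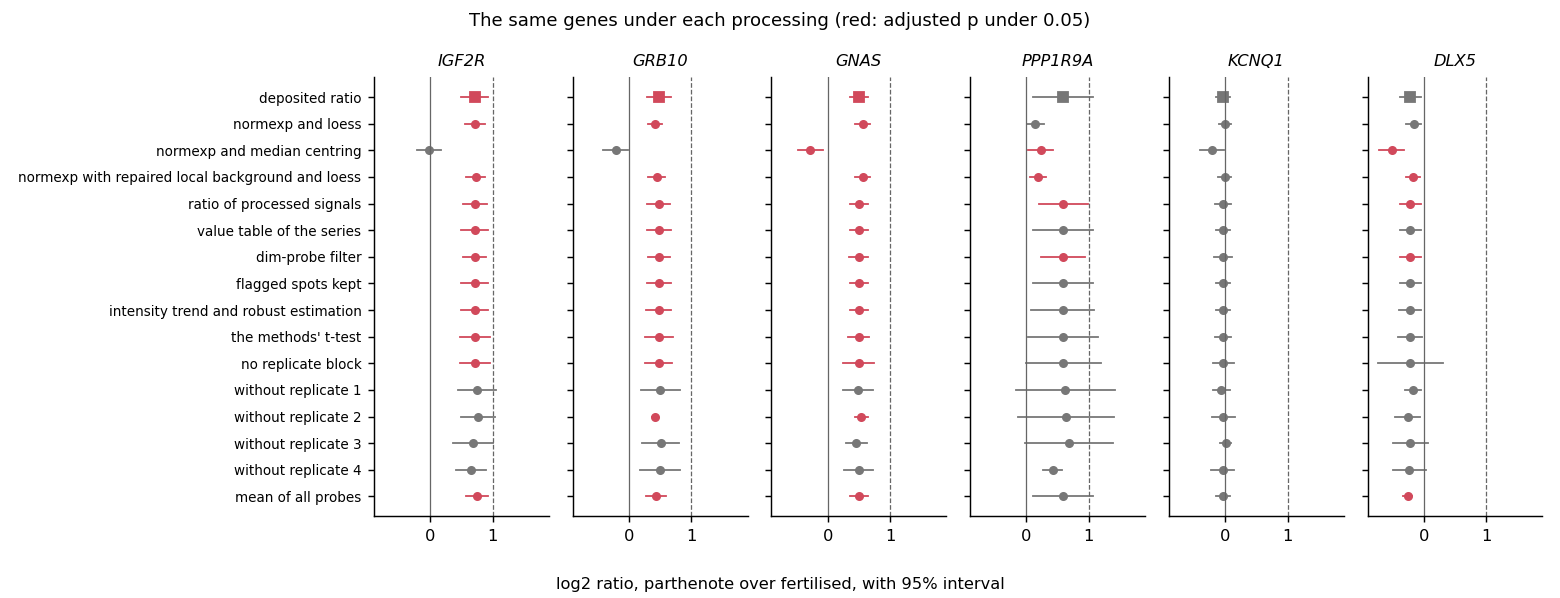
Log2 ratio of parthenote over fertilised embryos (x axis) with its 95% interval under each processing (y axis), for the brightest probe of 6 genes; red marks an adjusted p under 0.05, and solid and dashed lines mark 0 and a doubling. IGF2R, GRB10 and GNAS stay between 0.41 and 0.76 under each setting except normexp with median centring, where they are -0.02, -0.21 and -0.28.

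PPP1R9A encodes neurabin, an actin-binding scaffold for protein phosphatase 1 that is known from synapses, and it lies beside the paternally expressed genes SGCE and PEG10. Its single probe was dim, above background on 4 arrays in parthenotes and on 3 in fertilised embryos. The log2 signals were 5.03, 4.47, 4.87 and 4.55 in parthenotes. They were 4.54, 4.03, 4.54 and 3.45 in fertilised embryos, so the groups overlapped. The parthenote was higher within each array, with log2 ratios of 0.49, 0.44, 0.33 and 1.10. The mean of 0.59 ± 0.35 (SD, n = 4 arrays) had an adjusted p of 0.0941 in limma. Its interval ran from 0.11 to 1.07 and was the only interval of the brightest probes that held a doubling, while 4.47% of the probes well above background in both channels did so. The size of the ratio and its reach to a doubling depended on the fertilised signal of array 4. Without replicate 4 the ratio was 0.42 with an interval from 0.26 to 0.57 (adjusted p = 0.0752 in limma). After normexp and loess it was 0.14 (adjusted p = 0.137 in limma). It was called higher with the dim-probe filter (adjusted p = 0.0247 in limma), the ratio of processed signals (0.0307), median centring (0.0373) and repaired backgrounds (0.0379).

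KCNQ1 encodes a voltage-gated potassium channel and lies in an imprinted domain with CDKN1C. The log2 signals were 6.92, 6.89, 6.82 and 7.03 in parthenotes. They were 6.87, 6.93, 6.96 and 7.03 in fertilised embryos. The groups overlapped throughout. The log2 ratios were 0.05, -0.04, -0.14 and 0.00, with a mean of -0.03 ± 0.08 (SD; adjusted p = 0.65 in limma). The interval, from -0.14 to 0.08, lay under a doubling.

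DLX5 encodes a homeobox transcription factor of bone and craniofacial development, and evidence for its imprinting differs between species. The log2 signals of its brightest probe were 7.55, 8.35, 7.62 and 7.56 in parthenotes. They were 7.93, 8.44, 7.84 and 7.74 in fertilised embryos, and the groups overlapped because both pools of array 2 were the highest. The log2 ratios were -0.38, -0.09, -0.23 and -0.18. Their mean of -0.22 ± 0.12 (SD, n = 4 arrays) had an adjusted p of 0.0803 in limma. The other 4 probes, which share nearly all of their bases with it, had means between -0.31 and -0.24 and passed the test, with adjusted p between 0.0241 and 0.0448 in limma. The mean over all 5 was -0.26 (adjusted p = 0.015 in limma). Of the 5 probes, 0 were called after normexp and loess, where the brightest had -0.16. The brightest had negative values under all alternatives run.

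CALCR, the calcitonin receptor, and CPA4, a carboxypeptidase, gave no measurement. The log2 signals of their brightest probes were between 1.43 and 2.20 over both groups, the substitute value that the software writes for dim spots, and their deposited ratios were set to 0. These zeros do not show that the genes were unchanged, and no ratio or interval is given for them.

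The genes that lie next to the 8 genes were examined where they had a probe, taking the order of protein-coding genes from the RefSeq table of the rabbit assembly mOryCun1.1. Beside GNAS, NELFCD, a subunit of the negative elongation factor, had log2 ratios of -0.04, 0.12, 0.00 and 0.10 and a mean of 0.04 ± 0.08 (SD; adjusted p = 0.493 in limma). Beside DLX5, SDHAF3, an assembly factor of succinate dehydrogenase, had -0.07 ± 0.07 (SD; adjusted p = 0.237 in limma), and DLX6, its paired homeobox gene, had -0.04 ± 0.10 (SD; adjusted p = 0.587 in limma). VPS50, beside CALCR, had 0.09 ± 0.04 (SD; adjusted p = 0.0606 in limma). PON1, beside PPP1R9A, was above background only in fertilised embryos, on 3 arrays, and had -0.40 ± 0.54 (SD; adjusted p = 0.36 in limma). COBL beside GRB10, CPA5 beside CPA4 and PEG10 beside PPP1R9A were not well above background in either group on any array. Whether GNAS differs from its neighbour was not tested.

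DLX5, PPP1R9A and CALCR span a stretch of 3.17 Mb on chromosome 10 (chr10:32242011-35410825 in the unnamed build of the array) in which 16 genes had a named probe as their brightest. Of these, 1 was called higher and 1 lower, and both were looked up after their values were seen. PDK4, a kinase of pyruvate dehydrogenase, was called higher but was not well above background in either group, so that no size is given. PON3, a paraoxonase, had log2 ratios of -2.38, -1.37, -1.15 and -1.53 (mean -1.61 ± 0.54, SD; adjusted p = 0.0331 in limma).

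Other genes that are maternally expressed in mouse or human were taken from a list of 31, of which 13 had a probe. In limma 1 was called higher, 2 lower and 10 not, with a median log2 ratio of -0.16. The mean log2 ratio was positive for 4 and negative for 9 of them. H19, named here after its value was seen, had log2 ratios of 0.31, 0.10, 0.92 and 0.63. Its mean of 0.49 ± 0.36 (SD, n = 4 arrays) was not called (adjusted p = 0.14 in limma). TRAPPC9, a subunit of a vesicle tethering complex, had 0.26 ± 0.07 (SD, n = 4 arrays; adjusted p = 0.026 in limma) and turned to -0.12 under normexp with median centring. PON3 was one of those called lower. HTR2A, a serotonin receptor, was well above background only in fertilised embryos and was at least 1.57-fold lower in parthenotes (adjusted p = 0.0115 in limma). Such bounds set the mean of the bright group, after loess and Aquantile normalisation, against a floor in the other group, which on each array was the larger of that probe's own signal and the faintest signal still well above background, and dye bias can move them. Of the 31 genes known to be paternally expressed, 16 had a probe. Of these, 0 were called higher and 8 lower, with a median of -1.23, or -0.86 with genes at background in parthenotes at their bound. The median was -0.19 after normexp and loess, -0.13 with median centring and -0.28 with repaired backgrounds. The 8 include PEG3, a zinc finger gene that was not well above background in either group. At an unadjusted p under 0.05 there were 0 higher and 12 lower, and the methods' t-test gave 0 and 7. SNRPN and SNURF, which share a transcript, had log2 ratios of -6.93 and -5.51. ZDBF2 was at least 1.58-fold and NNAT at least 1.96-fold lower in parthenotes, and SNRPN was above background on 3 of the parthenote arrays.

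**Figure D4:**
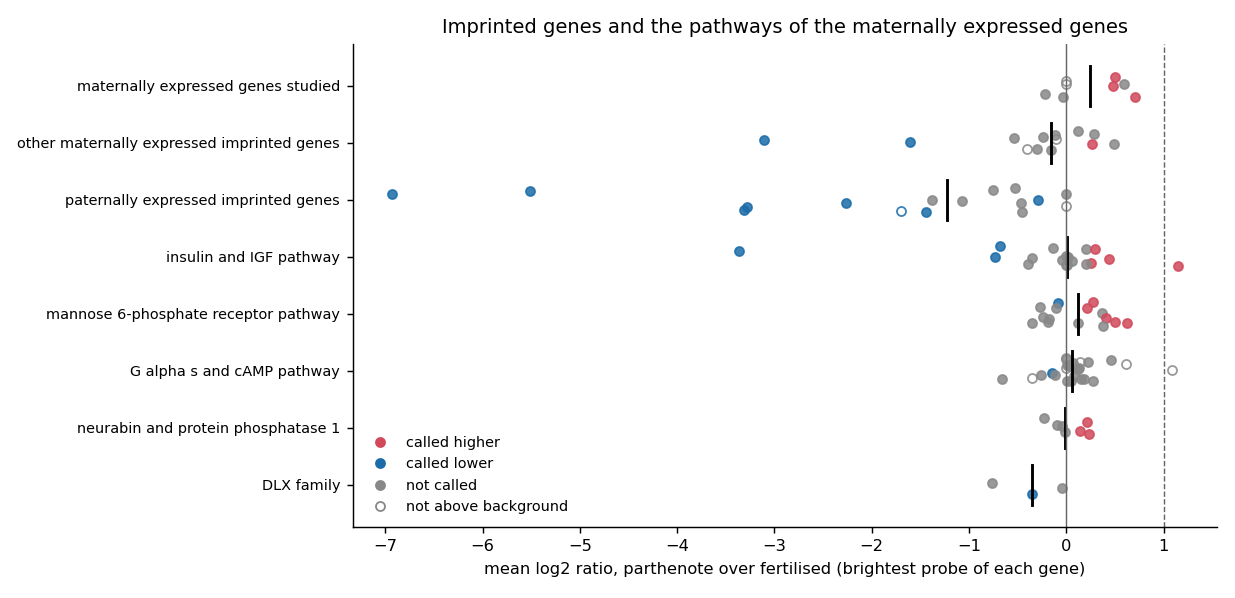
Mean log2 ratio of parthenote over fertilised embryos (x axis) of the brightest probe of each gene, by list (y axis), with the list median as a black bar, 0 as a solid line and a doubling as a dashed line. Genes called higher are red, genes called lower blue, others grey, and open circles were not above background in either group. The 3 maternally expressed genes called higher lie at 0.48, 0.50 and 0.71 (-0.21, -0.28 and -0.02 under median centring), and the genes called lower among the paternally expressed ones reach -6.93.

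GRB10 and IGF2R both act on insulin and IGF signalling, whose ligands bind receptor kinases that signal through IRS proteins. Of the 27 genes of that list, 18 had a probe, 4 were called higher and 3 lower, and the median log2 ratio was 0.01. INSRR, a receptor related to the insulin receptor, had 1.15 ± 0.36 (SD, n = 4 arrays; adjusted p = 0.0296 in limma) and was above background on 2 of the fertilised arrays. It had 0.20 after normexp and loess and 0.29 with repaired backgrounds. IGF1R, the main IGF receptor, had -0.68 ± 0.26 (SD; adjusted p = 0.0418 in limma). GRB14, an adaptor of the same family as GRB10, was lower by the same test, with log2 ratios of -1.02, -0.56, -0.61 and -0.75 (mean -0.73 ± 0.21, SD; adjusted p = 0.0258). IRS4, a docking protein of these receptors, was at least 1.76-fold lower in parthenotes (adjusted p = 0.0169 in limma). IRS1, a docking protein too, and the ubiquitin ligase NEDD4 were also called higher, with log2 ratios of 0.44 and 0.30.

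IGF2R also sorts lysosomal enzymes. Of 26 genes of the mannose 6-phosphate receptor pathway 15 had a probe, 5 were called higher and 1 lower, and the median was 0.12. Among those called higher were the lysosomal protease CTSB (0.62 ± 0.19), the glycosidases GUSB (0.50 ± 0.04) and HEXA (0.27 ± 0.07), and the cholesterol carrier NPC2 (0.21 ± 0.05), where ± is the SD over the arrays, 3 of them for NPC2. All of these turned negative under normexp with median centring. M6PR, the smaller receptor for the same cargo, had log2 ratios of -0.07, -0.11, -0.11 and -0.08 and was called lower (mean -0.09 ± 0.02, SD; adjusted p = 0.0215 in limma).

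Downstream of GNAS, the list of G alpha s and cAMP genes held 32 genes, 24 of them with a probe. Of these, 0 were called higher and 1 lower in limma, with a median of 0.06. At an unadjusted p under 0.05 there were 4 higher and 3 lower, and the methods' t-test gave 0 and 0. The gene called lower was GNA13, the alpha subunit of another G protein family, at -0.15 ± 0.06 (SD; adjusted p = 0.0432 in limma). The catalytic subunit PRKACA of protein kinase A had 0.15 ± 0.07 (SD; adjusted p = 0.0666 in limma), named here after its value was seen.

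Of the partners of neurabin around protein phosphatase 1, 7 of 12 had a probe and 3 were called higher, PPP1R11 at 0.23 ± 0.09, PPP1CA at 0.21 ± 0.06 and PPP1R2 at 0.14 ± 0.05 (SD), with a median of -0.01. All 3 turned negative under normexp with median centring. Of the DLX list, 3 of 5 genes had a probe. DLX3, a homeobox factor of the placenta, was called lower with log2 ratios of -0.36, -0.29, -0.34 and -0.41 (mean -0.35 ± 0.05, SD; adjusted p = 0.0106 in limma). Of the partners of the KCNQ1 channel, 6 of 10 had a probe, and AKAP9, a scaffold of the channel complex, was called higher at 0.41 ± 0.15 (SD; adjusted p = 0.0408 in limma).

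The 3 genes most like each measured gene over the log2 signals of the 8 channels were taken from 10326 named genes. This is a description, because 8 channels of 4 arrays share dye and array. For IGF2R they were PINLYP, EFHB and HIP1, with Pearson's r between 0.992 and 0.994. For GRB10 they were ALX1, EPHA8 and DUOX1 (0.992 to 0.996), and for GNAS PGM2L1, EIF2AK1 and FBXL4 (0.988 to 0.99). DLX5 was nearest to SEC13, CLSPN and DPF2 (0.972 to 0.984), and KCNQ1 to GRIA3, MUC12 and SELE (0.901 to 0.949). The log2 ratios of the 9 genes nearest to IGF2R, GRB10 and GNAS ranged from 0.17 for DUOX1 to 2.86 for EFHB.

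The blastocyst label was checked on trophectoderm genes, 8 of 11 with a probe, epiblast genes, 4 of 11, and primitive endoderm genes, 5 of 12. Their median log2 ratios were -0.11, -0.13 and -0.34. KRT8 and KRT18, keratins of the trophectoderm and of other simple epithelia, were called higher in parthenotes at 0.58 ± 0.22 and 0.51 ± 0.08 (SD), and GATA2 lower at -0.64 ± 0.26 (SD). POU5F1, which marks the epiblast, was called higher at 0.21 ± 0.03 (SD), while the other epiblast genes with a probe, LIN28A at -0.22, GDF3 at -0.37 and OTX2 at -0.04, were not called. KRT8, KRT18 and POU5F1 turned negative under normexp with median centring, and all 4 of these genes were well above background in both groups. Of the primitive endoderm genes 0 were called in limma, with 0 higher and 2 lower at an unadjusted p under 0.05 and 0 by the methods' t-test.

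Markers of maternal cells were examined as well. Genes of motile ciliated cells, 11 of 21 with a probe, had 7 called higher and 0 lower, with 10 and 0 at an unadjusted p under 0.05 and 5 and 0 by the methods' t-test. Their summed signal was between 1640 and 4210 in parthenote pools and between 555 and 695 in fertilised pools. Among those called were CFAP43 at 4.08, CAPS at 2.42, CFAP126 at 2.24 and RSPH1, at least 1.41-fold higher, while FOXJ1, the defining factor of these cells, was not well above background. CFAP43 was above background on 1 of the fertilised arrays and had 1.25 after normexp and loess. The median of the ciliated list was 2.11 in the deposited ratios and 0.61 after normexp and loess. Genes of the secretory epithelium of oviduct and uterus, 7 of 13 with a probe, had 5 called higher and 0 lower (5 and 0 at an unadjusted p under 0.05, 4 and 0 by the methods' t-test), among them SPP1, OVGP1, PIGR and SCGB1A1 at 4.55, 3.87, 2.90 and 2.75. SPP1 had 6.73 on array 4, was above background on 3 of the fertilised arrays and had 1.83 after normexp and loess, where OVGP1 had 3.44 and SCGB1A1 2.40. The summed signal of the secretory list was between 9070 and 33500 in parthenotes and between 4570 and 8250 in fertilised embryos. Among its bright genes WFDC2, with mean log2 signals of 12.27 and 12.26, was not called. Its log2 ratio was 0.01 ± 1.04 (SD), with -1.52 on array 1. ESR1 was not well above background.

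Of the leukocyte genes, 7 of 11 had a probe and 4 were called higher, CD48 at 1.85, CD14 at 0.92, LCP1 at 0.67 and ITGB2 at 0.60. After normexp and loess these 4 had 0.72, 0.54, 0.27 and 0.42. PTPRC and CD3E, which define leukocytes and T cells, were not well above background, and the summed signal was between 805 and 988 in parthenotes and between 462 and 527 in fertilised embryos. Of the stroma and smooth muscle genes, 10 of 11 had a probe and 1 was called higher, TAGLN at 0.66 (negative under normexp with median centring), with summed signals between 3660 and 5070 and between 2340 and 3220. These sums largely follow TAGLN, whose mean log2 signals were 11.94 in parthenotes and 11.28 in fertilised embryos. The next brightest gene, COL1A2, had 7.49 and 7.12 and was not called. ACTA2, MYH11 and PDGFRB were not well above background. Of the erythroid genes, 4 of 9 had a probe, and HBB2, a globin, and ALAS2 were called higher at 3.25 and 1.94, with summed signals between 47300 and 101000 and between 3990 and 18300. The erythroid sums largely follow HBB2, whose mean log2 signals were 16.2 in parthenotes and 12.95 in fertilised embryos, against 7.61 and 5.66 for ALAS2. The part of maternal cells in the increases of IGF2R, GRB10 and GNAS was not tested.

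Array by array, the median log2 ratio of the ciliated list was 2.35, 1.23, 2.51 and 2.19. For the secretory list it was 2.18, 2.30, 2.97 and 2.97. The brightest GRB10 probe was highest on array 2 (0.69). GNAS was highest on array 3 (0.61) and lowest on array 2 (0.36). The brightest IGF2R probe was lowest on array 2 (0.56) and highest on arrays 3 and 4 (0.81 and 0.88). The dimmer IGF2R probe was lowest on array 3 (0.64) and highest on array 4 (0.99). With 4 arrays no correlation is given, and a relation of these genes to the lists was not tested.

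**Figure D5:**
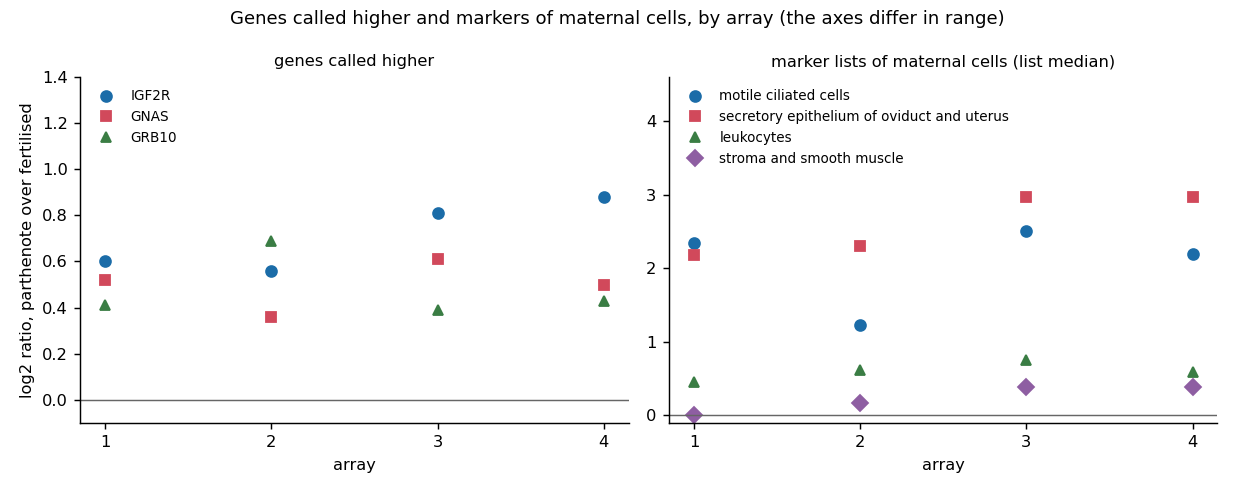
Log2 ratio of parthenote over fertilised embryos (y axis) by array (x axis) for the brightest probes of IGF2R, GNAS and GRB10 on the left and for the medians of 4 lists of maternal cell markers on the right; the y axes differ in range. The 3 genes lie between 0.36 and 0.88, and the ciliated and secretory medians between 1.23 and 2.97. Under median centring the means were -0.02 for IGF2R, -0.28 for GNAS and -0.21 for GRB10.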

How the data were processed

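Transcripts were measured on 4 Agilent 2-colour rabbit arrays, each with a pool of parthenotes and a pool of fertilised embryos. The authors extracted the scanned spots with Agilent Feature Extraction (10.10.1.1 in the submitters' processing notes). The deposited files give, per spot, mean and local background intensity, processed intensity (background-subtracted and dye-normalised, with a substitute for dim spots) and a log10 ratio of Cy5 over Cy3, set to 0 where both channels are substitutes. The authors' value table of the series is that log10 ratio with its sign turned, so it is no separate check. The methods name a t-test with Benjamini-Hochberg adjustment. The genome build was not given in the sources used here.

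Here the ratios were put on the log2 scale as parthenote over fertilised, without control spots, with between 26 and 48 marked spots per array set to missing, and with a mean over the spots of a probe. The 43595 probes measured on 3 or more arrays entered limma 3.58.1 under R 4.3.3 (lmFit, eBayes, mean against 0, two-sided), which also gave the 95% intervals. The spots that the software marked as well above background numbered 25805 to 26339 on an array for parthenotes and 27508 to 27835 for fertilised embryos. Precision is limited by the number of arrays. The ratio pairs the pools of an array: deviations from the group means correlated between 0.601 and 0.651 within arrays. Across arrays the mean correlations were between -0.211 and -0.205. Their negative sign follows from subtracting the means over the arrays, so they are no separate support for the pairing. The scripts were tested on simulated data, where limma recovered 5 of 50 changes of 1.5-fold and 15 of 50 changes of 2-fold. Fewer probes were changed there than were called here, which makes the adjustment stricter. A gene that was not called is thus not shown to be unchanged. Other tools were numpy 2.4.6, pandas 2.3.3 and matplotlib 3.10.9 in Python 3.11.15, and the R package data.table, version 1.17.8.

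Of the probes, 23179 were given a gene name, 12536 through a RefSeq accession, 8565 through a gene identifier in the description, and others through a symbol or term in the array files or another probe of the transcript. RefSeq names and gene order are those of mOryCun1.1. The genes studied, the gene lists and the alternatives were chosen with earlier results of these data known. Named are every gene studied, by its brightest probe over both channels, up to 4 called genes of each other list with the largest log2 ratio, genes next to a gene studied, and the 3 genes most alike in signal. IRS1, NEDD4, NPC2 and markers that were not above background lie outside this rule, and some genes that it names are not reported here. Alternatives were normexp (offset 50) with loess or with median centring, the ratio of processed signals, the value table, a filter on dim probes (kept where one of the channels exceeded background on every array), marked spots kept, the methods' t-test, no pairing, an intensity trend with robust estimation, leaving out each replicate, a mean over a gene's probes and, added after the data were seen, normexp with loess after a repair of local backgrounds on arrays 2 and 4.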

Additional observations from a re-analysis of the deposited data

Results flagged for a closer look

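The GRB10 log2 ratio of array 2 stood apart from the other arrays by Dixon's test for 4 values. It was 0.69 for the brightest probe, and 0.65, 0.60 and 0.54 for 3 of the other probes, which overlap with it and are close to the same measurement. The fertilised and parthenote signals of GRB10 on that array did not stand apart by the same test. For DLX5, the parthenote log2 signal of the brightest probe on array 2 was 8.35, above the other arrays, between 7.55 and 7.62. In all 48 sets of 4 values were tested, many of them from overlapping probes, and chance marks about 1 in 20.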

How the results depend on the processing

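Normexp with median centring turned GRB10 to -0.21, IGF2R to -0.02 and GNAS to -0.28, called 3 genes higher (PPP1R9A, CALCR and CPA4) and 2 lower, 5 probes of the genes studied higher and 9 lower, left 0 intervals with a doubling and called 31610 of all probes. It has no step that removes a trend of the ratio with brightness. Of the 61 genes called in the other lists, 16 turned in sign there and 0 under the other scalings. Normexp and loess left 0 intervals with a doubling and 0 probes called lower. With repaired backgrounds, 5 genes were called higher, PPP1R9A and CALCR among them, 1 lower and 0 intervals held a doubling. The ratio of processed signals called 6 genes higher, 1 lower and 21399 of all probes, with 0 intervals that held a doubling; it calls PPP1R9A, and CALCR and CPA4, whose signals are substitutes. Of its calls 65.0% were higher, against 46.2% in the deposited ratios. The dim-probe filter and the mean of all probes each called 1 gene lower, DLX5, and the filter called 4 genes higher, PPP1R9A included, and left 0 intervals with a doubling. An intensity trend called 2 probes lower and the methods' t-test 1, with 5626 of all probes. Without the pairing of the pools (no replicate block), 5 genes were called higher, 2 probes lower and 16358 of all probes, 68.0% of them higher. Leaving out a replicate gave between 0 and 2 genes called higher, between 0 and 5 probes called higher, 0 probes called lower, between 0 and 2 intervals that held a doubling and between 1239 and 5735 probes in all; 0 genes were called higher without replicate 1, 3 or 4, and KCNQ1 lay between -0.06 and 0.01, positive without replicate 3. Each such fit has fewer arrays. A fit restricted to probes that translate into the RefSeq protein was not run. The causes of these changes between settings were not tested. Few arrays, a single dye orientation, the normalisation and probes near background limit these values.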

Other observations

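The families of the genes that gave no measurement were represented by other members. Of the tissue factor pathway, which TFPI2 restrains, 13 of 14 genes had a probe, 2 were called higher and 1 lower, and the median log2 ratio was 0.02. PLAU, the urokinase plasminogen activator, had log2 ratios of 2.77, 2.91, 1.10 and 2.68 (mean 2.36 ± 0.85, SD, n = 4 arrays; adjusted p = 0.0374 in limma). SERPINE2, an inhibitor of such proteases, had 0.77 ± 0.25 (SD, adjusted p = 0.0309 in limma). After normexp and loess PLAU had 0.81 and SERPINE2 had 0.24. TFPI, the relative of TFPI2, had 0.02 ± 0.16 (SD; adjusted p = 0.986 in limma), named after its value was seen.

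Of the carboxypeptidase A family with its inhibitor, 7 of 8 genes had a probe, 1 was called higher and 2 lower. LXN, the inhibitor latexin, had 1.17 ± 0.49 (SD, n = 4 arrays; adjusted p = 0.0489 in limma). CPB1 had -0.72 ± 0.26 (SD; adjusted p = 0.0378 in limma), and CPB2, above background only in fertilised embryos, was at least 1.67-fold lower in parthenotes (adjusted p = 0.0236 in limma). Of the calcitonin receptor family, 4 of 11 genes had a probe, 1 was called higher and 1 lower. CRCP, a protein that couples such receptors, had 0.21 ± 0.07 (SD; adjusted p = 0.0352 in limma) and turned to -0.07 under normexp with median centring. IAPP was called lower but was not well above background in either group, so that no size is given.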
